A study of Mus musculus with 8 samples.

Results

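Blood vessels are lined by endothelial cells and wrapped by mural cells, a class that covers pericytes on capillaries and smooth muscle cells on larger vessels. Transcripts of both were measured here in RNA from adipose tissue macrophages, which were selected for the surface protein F4/80. A list of 37 symbols was matched to the first column of the deposited gene table, and all 37 were found among its 15867 genes. Of these, 28 are endothelial and 9 mural, and the classes are described apart. All 37 also passed the filter on low values (a mean normalized count of at least 10).

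The 8 RNA-seq libraries came from obese mouse adipose tissue after 20 weeks of high-fat diet. All mice carried loxP-flanked Mirc11 and Mirc22, a pair of clusters that each encode members of the miR-23, miR-24 and miR-27 families of microRNAs. The 4 control libraries were Mirc11fl/fl Mirc22fl/fl Lyz2+/+ and the 4 knockout libraries Mirc11fl/fl Mirc22fl/fl Lyz2Cre/Cre, a knock-in that expresses Cre recombinase in myeloid cells. Loss of the clusters, presence of Cre and disruption of Lyz2 cannot be told apart, since knockout libraries have all of them and control libraries none. Age and sex of the mice are not given in the sources used here, nor whether each replicate was 1 mouse, so the spread behind each p-value is that between the 4 libraries of a group, which may in part be technical. Values are normalized counts given by library or as mean ± SD (n = 4 per group). Differences are on the scale log2(normalized count + 1), knockout less control, by limma's two-sided test, with Benjamini-Hochberg adjusted p over the 15862 genes tested and a threshold of 0.05.

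As background, endothelial cells share a small set of genes that few other cells use together. VE-cadherin and claudin-5 seal the junctions, VEGF and angiopoietin receptors receive growth signals, and ETS and SoxF transcription factors hold the identity in place. Adipose capillaries also carry GPIHBP1, which anchors lipoprotein lipase at the vessel wall so that fatty acids can be released to adipocytes. Pericytes and smooth muscle cells answer PDGF and Notch signals from the endothelium, and smooth muscle adds a contractile apparatus.

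The libraries held 31789395 to 46621080 recovered reads. Lyz2, the site of the Cre knock-in, measured at least 156727 in every control and at most 273 in every knockout library, so all 8 labels fitted their genotype at this gene. F4/80 itself (Adgre1) measured 47340 ± 7761 in control and 40553 ± 2504 in knockout libraries (-0.21, SE 0.12, adjusted p = 0.346; 0.11 when libraries were scaled to macrophage genes). Macrophage markers were thus abundant in every library, and endothelial and mural transcripts were measured beside them.

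Endothelial and mural transcripts were found in every library. The 28 endothelial genes together made up 0.447%, 0.758%, 0.699% and 0.507% of all normalized counts in control replicates 1 to 4. They made up 0.996%, 0.755%, 0.697% and 0.965% in knockout replicates 1 to 4. The 9 mural genes gave 0.148%, 0.283%, 0.255% and 0.199% in control and 0.370%, 0.289%, 0.289% and 0.236% in knockout libraries. In both classes the groups overlapped. Control replicates 1 and 4 were low, knockout replicate 1 was high, and control replicates 2 and 3 lay near knockout replicates 2 and 3. In a bulk sample, more cells of a type and more RNA per cell cannot be told apart.

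Set per length of the longest annotated coding transcript, the most abundant member was Aqp1, a water channel of capillary endothelium, at 17993 ± 3474 per kilobase in control and 23674 ± 5651 in knockout libraries. On the same scale Csf1r, the macrophage growth factor receptor, stood at 13637 in control and 9968 in knockout libraries, and Adgre1 at 14620 and 12524. Of the 10 macrophage genes listed, Lgals3 (62872 and 53945) and Cd68 (35103 and 26360) stood above Aqp1 in both groups. Trem2 (22935 and 17129) did so in control libraries only, and the others stood below Aqp1. The junction gene Pecam1 stood at 5009 ± 1159 and 7006 ± 1185 per kilobase. The smooth muscle gene Tagln stood at 7457 ± 1870 and 9926 ± 2443. The lowest member was Prox1, a transcription factor of lymphatic endothelium, at 4.91 ± 1.48 and 6.76 ± 2.79, and the next lowest was the receptor gene Flt4 at 134 and 183.

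**Figure D1:**
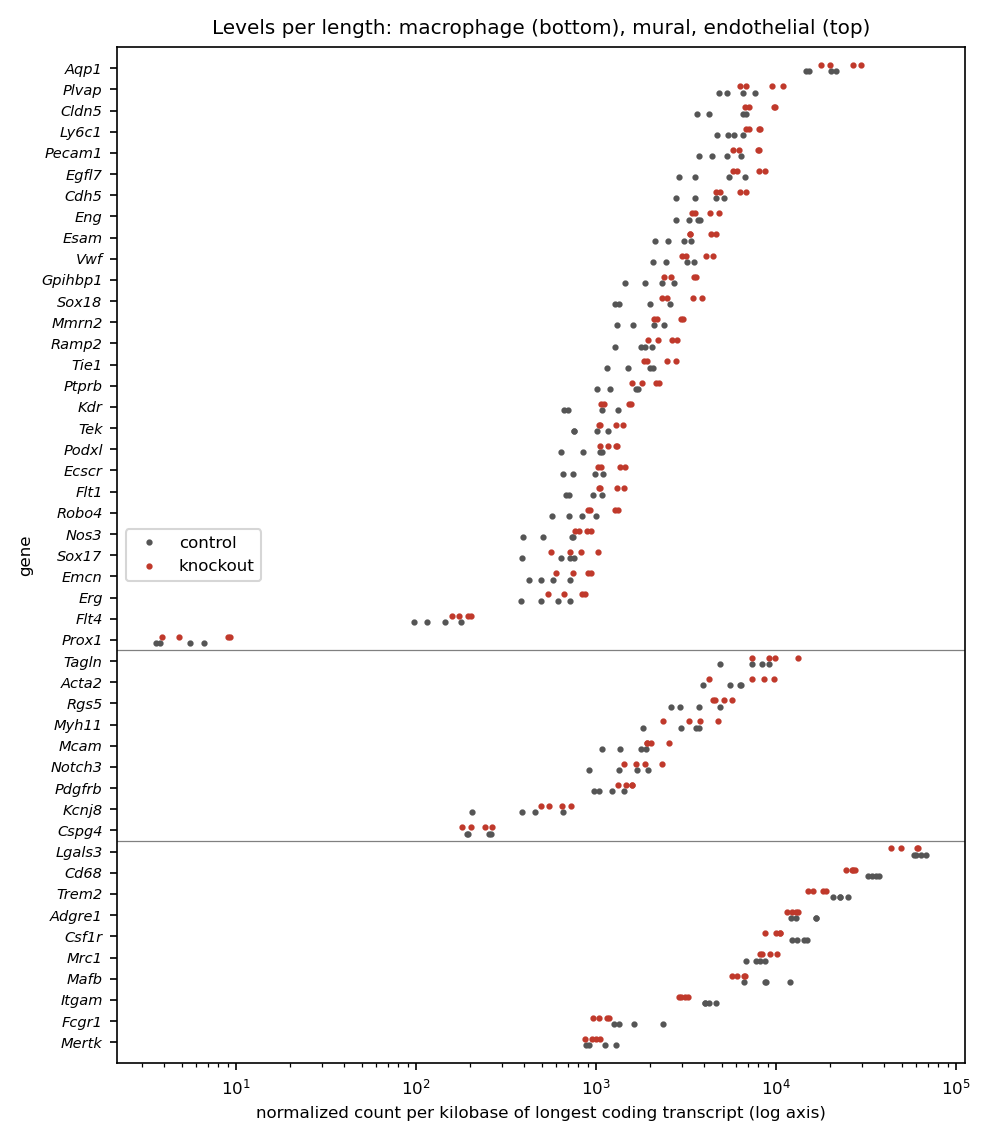
Normalized count per kilobase of the longest coding transcript (log axis) for macrophage, mural and endothelial genes, with a point for each of 4 control and 4 knockout libraries. The group means of Aqp1 (17993 and 23674) lie above those of the macrophage genes Adgre1 and Csf1r. They lie below those of the macrophage genes Lgals3 (62872 and 53945) and Cd68 (35103 and 26360). Prox1 lies far below all others.

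Across the 2 groups, the 28 endothelial genes were all higher on average in knockout libraries, but 0 of 28 passed the threshold in limma (nor any of the 9 mural genes), where 3.61% of all tested genes passed and 1.24% passed as higher in knockout libraries. The median log2 difference of the endothelial members was 0.49, with a range of 0.24 to 0.78, against a median of 0.00 over all genes tested. An unadjusted p under 0.05 was found for 19 endothelial members (67.9%), all with higher knockout means, while 21.2% of all genes had such a p and 10.8% in the direction of higher knockout values. The mural median was 0.40, with 8 of 9 members higher on average and 3 at an unadjusted p under 0.05. Without control replicate 1 the mural median was 0.24, and with 1 library left out 1 (without knockout replicate 1) to 5 mural members had such a p. Over all genes, 50.5% had a higher knockout mean. The members come from the same 8 libraries and moved together in them, so these counts are not independent of each other.

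The standard errors of the members were large. Their median was 0.19 for endothelial and 0.22 for mural members, against 0.11 over all genes. The 95% interval of the difference included 0 for 9 of 28 endothelial and 6 of 9 mural genes, and it reached above 1 (a doubling) for 6 and 1. By edgeR's quasi-likelihood test on recovered reads 0 of 37 passed as well (3.5% of all genes), with 20 endothelial and 3 mural members at an unadjusted p under 0.05. The authors' deposited table, from DESeq2, lists 7 endothelial and 1 mural member as higher in knockout at an adjusted p under 0.05, where 4.65% of its genes with an adjusted p are so listed. They are Ly6c1 (0.00388), Sox18 (0.0228), Cldn5 (0.0274), Esam (0.0352), Flt1 (0.0368), Ramp2 (0.0474), Emcn (0.0477) and Pdgfrb (0.0492). DESeq2 run on the recovered reads gave the same totals as the deposited table, 666 genes higher and 891 lower (10.9% in either direction). It called 8 members, all higher, and as a repeat of the authors' test it adds no separate support. It gave 24 endothelial and 3 mural members an unadjusted p under 0.05. Over all genes, the numbers at such a p by edgeR and by DESeq2 were close to that by limma (3362).

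The size of the endothelial difference, and the number of members at a low p, depended on which library was left out. Control replicate 1 had the lowest value for 25 of the 28 genes and knockout replicate 1 or 4 the highest for 27 (17 and 10). The 19 members at an unadjusted p under 0.05 became 9 without control replicate 1 and 10 without control replicate 4. They became 8 without knockout replicate 1 and 6 without knockout replicate 4. Over all genes 3362 had such a p with every library kept, and fewer did in each of these fits. Without knockout replicate 4 the endothelial share was near that of all genes counted in either direction, and in the other fits named so far it stayed above. All 28 endothelial differences were above 0 without knockout replicate 4. The share of all genes at such a p with a higher knockout mean was not counted in that fit. Without control replicate 1 the differences of Tie1 (0.28), Erg (0.25), Vwf (0.26), Podxl (0.28) and Eng (0.15) were also smaller by more than 1.5 times, as did that of Eng without knockout replicate 1 (0.15). Endothelial members at an unadjusted p under 0.05 rose to 24 without control replicate 2 and to 22 without control replicate 3. They rose to 24 without knockout replicate 2 and to 21 without knockout replicate 3. In each fit with 1 library left out, all 28 endothelial genes stayed higher on average in knockout libraries. The median difference was 0.35 without control replicate 1 and 0.61 without control replicate 2. Without control replicate 2, Ly6c1 passed (limma adjusted p = 0.0399), as did the mural genes Rgs5 (0.0407) and Pdgfrb (0.0478), where 3.17% of all genes passed. Ly6c1 also passed with equal totals (0.0419) and with quantile normalization (0.0351), where 3.08% of all genes passed in each.

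**Figure D2:**
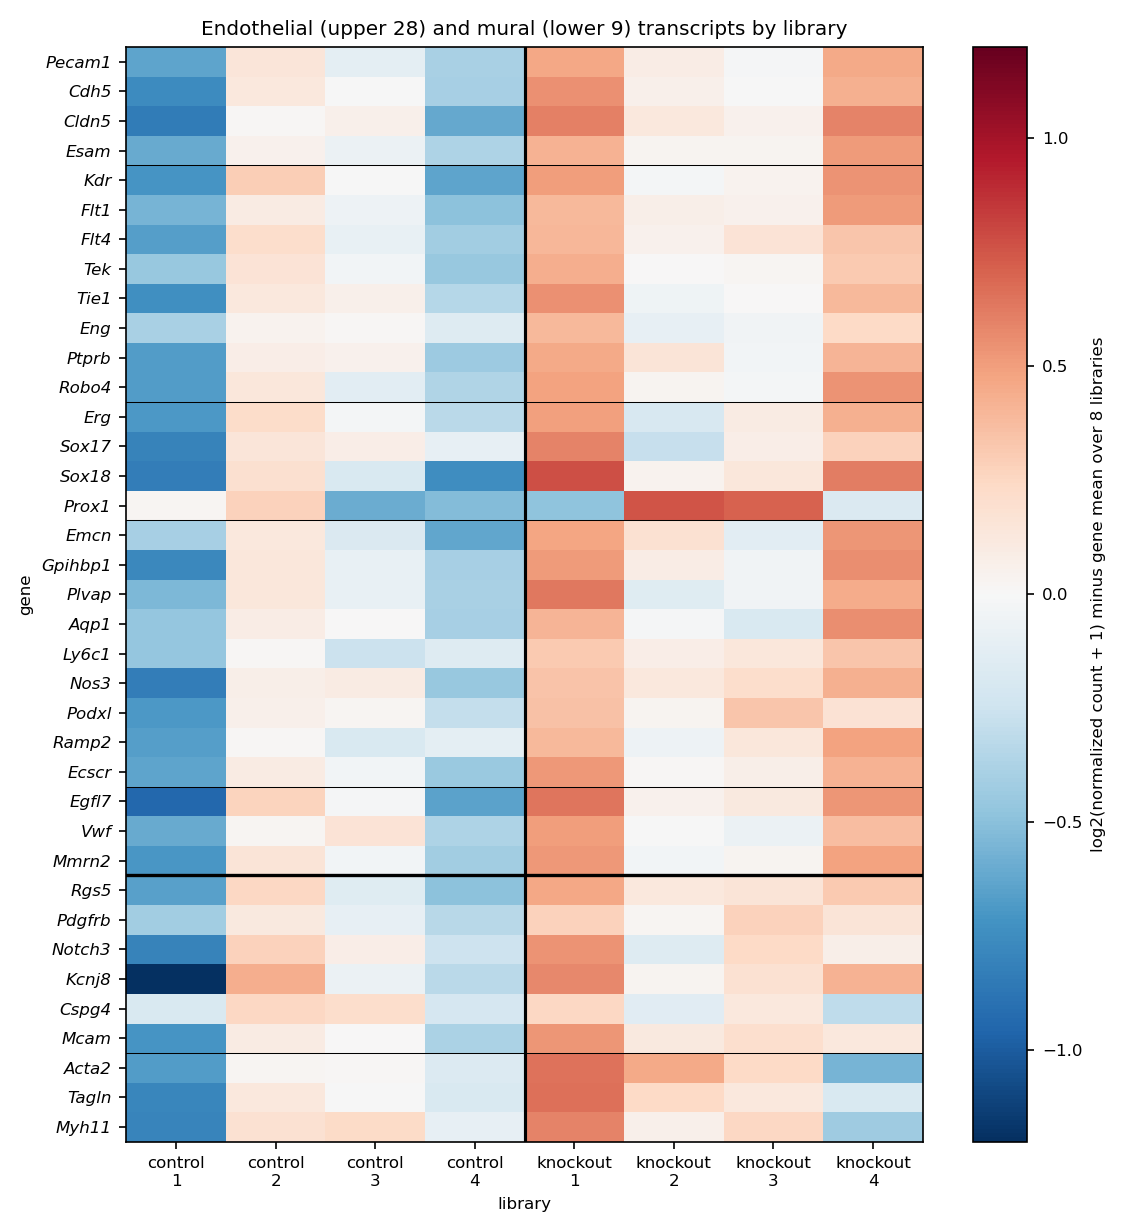
Colour gives each gene's log2(normalized count + 1) minus its mean over the 8 libraries, with genes in rows (28 endothelial above the thick line, 9 mural below) and libraries in columns. Control replicates 1 and 4 are low and knockout replicates 1 and 4 high for most endothelial genes, while the contractile genes at the foot are low in knockout replicate 4 and Prox1 follows a pattern of its own.

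Among the junction genes, Pecam1 (CD31, an adhesion molecule that platelets and some leukocytes carry too) measured 12961, 22144, 18530 and 15307 in control replicates 1 to 4. In knockout replicates 1 to 4 it measured 27631, 21375, 19858 and 27562. Knockout replicates 1 and 4 stood above every control, while the other pair lay below control replicate 2 (0.50, SE 0.18, adjusted p = 0.156). Pecam1 spans chromosome 11 from 106654217 to 106750628 in mm10.

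Cdh5, which encodes VE-cadherin, the defining junction protein of endothelium, measured 11096, 20492, 18637 and 14208 in control and 27327, 19528, 18653 and 25130 in knockout replicates (0.51, SE 0.20, adjusted p = 0.193). It repeats the library order of Pecam1 closely: the ratio of Cdh5 to Pecam1 stayed between 0.856 and 1.01 in all 8 libraries, although each gene alone spanned more than a doubling (2.13-fold for Pecam1 and 2.46-fold for Cdh5). Cdh5 spans chromosome 8 from 104101625 to 104144511.

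Cldn5, the tight junction protein claudin-5, had the largest difference of the 4 junction genes. Its values were 5149, 9318, 9618 and 6035 in control and 13989, 10087, 9539 and 13906 in knockout replicates, with only knockout replicate 3 inside the control range (0.69, SE 0.22, adjusted p = 0.128). Esam, an adhesion molecule of endothelium and platelets, measured 5199 ± 1041 and 7300 ± 1272 (0.50, SE 0.16, adjusted p = 0.131). All 4 junction genes had an unadjusted p under 0.05, and none passed after adjustment.

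The receptors gave similar differences at very different levels. Kdr, the main signalling receptor for VEGF-A (VEGFR2), measured 3927, 7871, 6376 and 4135 in control and 9079, 6300, 6620 and 9318 in knockout replicates (0.53, SE 0.24, adjusted p = 0.240). Here too knockout replicates 2 and 3 lay within the control range. Flt1 (VEGFR1), which binds VEGF-A and limits its supply to Kdr and which monocytes and macrophages can also express, measured 5926 ± 1328 and 8351 ± 1329 (0.51, SE 0.17, adjusted p = 0.129). Flt4 (VEGFR3), the receptor for VEGF-C that is strongest in lymphatic vessels, was the lowest receptor at 839 ± 221 and 1143 ± 123 (0.48, SE 0.17, adjusted p = 0.167).

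Tek, the angiopoietin receptor TIE2, measured 4307 ± 933 and 5593 ± 844 (0.39, SE 0.16), and its partner Tie1 7128 ± 1850 and 9592 ± 1943 (0.45, SE 0.21). Ptprb, the phosphatase VE-PTP that restrains TIE2, differed by 0.49 (SE 0.18), and Robo4, a stabilising receptor of vascular endothelium, by 0.51 (SE 0.19). Their adjusted p-values ran from 0.170 (Robo4) to 0.254 (Tie1). Eng (endoglin), a TGF-beta and BMP co-receptor that activated macrophages also make, had the smallest endothelial difference. It measured 9583, 12925, 12698 and 11295 in control and 16496, 11747, 12209 and 14789 in knockout replicates (0.24, SE 0.13, adjusted p = 0.325). Its span over libraries was also the narrowest of the endothelial genes, at 1.72-fold.

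Of the transcription factors, Sox18, a SoxF factor of vessel growth, had the largest difference of all 37 members. It measured 2058, 4200, 3238 and 2181 in control and 6270, 3778, 4035 and 5607 in knockout replicates (0.78, SE 0.25, adjusted p = 0.122). Knockout replicates 2 and 3 fell between control replicates 2 and 3, so the groups overlapped. Its relative Sox17, a marker of arterial endothelium, measured 2030 ± 533 and 2552 ± 639 (0.34, SE 0.24, adjusted p = 0.449). The difference of Sox17 was 0.13 without control replicate 1 and 0.20 without knockout replicate 1. Erg, the ETS factor that maintains endothelial identity, measured 1798 ± 475 and 2370 ± 498 (0.41, SE 0.21, adjusted p = 0.301).

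Prox1, the switch for lymphatic fate, did not follow the other 27. It measured 44.2, 52.9, 28.4 and 29.9 in control and 30.8, 73.6, 71.2 and 38.4 in knockout replicates (0.40, SE 0.34, adjusted p = 0.539). Knockout replicates 2 and 3 were high and knockout replicate 1 was low, unlike the order in blood vessel genes, at a level of at most 73.6. The difference of Prox1 was 0.63 without knockout replicate 1, 0.22 without knockout replicate 2 and 0.23 without knockout replicate 3. Of 6 other lymphatic genes 1 was called: Foxc2, a lymphatic valve factor, rose from 66.5 ± 4.8 to 111 ± 18.4 (0.72, SE 0.15, adjusted p = 0.0395). With 1 library left out, Foxc2 passed only without knockout replicate 4 and missed in the 7 other fits (highest adjusted p 0.101). The hyaluronan receptor Lyve1, which resident macrophages share with lymphatic vessels, measured 3188 ± 948 and 4161 ± 1543 (0.36, SE 0.25), and the chemokine Ccl21a 362 ± 135 and 520 ± 155 (0.56, SE 0.33). The summed lymphatic genes ranged from 3910 to 5457 in control and from 4477 to 8200 in knockout libraries, highest in knockout replicate 2 (list median 0.34).

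The promoters of the members were searched for the core AGGAAG bound by ETS factors such as Erg, on both strands (CTTCCT on the other). A link between this core and the values in the libraries was not tested. Promoters here run from 250 bases before to 50 after the start site (RefSeq, GRCm38.p6), and 14 endothelial and 6 mural members have an entry. The core was present for 9 of the 14 endothelial members (64.3%), for 0 of the 6 mural members and for 38.4% of the 27025 genes in the table. A gene counts when any of its listed promoters holds the core, and such a match is a description, not a binding site. The CArG box, the element of smooth muscle genes, was sought in its strict form (CC, then 6 bases of A or T, then GG). It was found for 0 of the 6 mural members, where 1.81% of all genes hold it. At so low a share, 0 of 6 cannot tell mural genes from others. The other 4 endothelial members with the core are Emcn, Tie1, Aqp1 and Ly6c1. Stretches of 30 bases follow for 5 endothelial genes that span receptors, a factor and a secreted protein, with the core in capitals. Each shows the match nearest before the start site among those whose whole stretch lies before it. Matches closer to the start were not considered.
Robo4: tgagggccaggcAGGAAGcatccgtttcct
Flt1: aggtgccggggtAGGAAGtgggctggggaa
Eng: aagcctgtggcaCTTCCTctactcgcctgg
Erg: caatagaaacctCTTCCTgccattggctga
Egfl7: tgctggtctttcCTTCCTgaggtgcagctg
The core begins 49 bases before the start in Robo4 (chr9:37401911-37401940, plus strand), 53 in Flt1 (chr5:147726047-147726076, minus strand) and 52 in Eng (chr2:32646531-32646560, plus strand). It begins 40 bases before the start in Erg (chr16:95459371-95459400, minus strand) and 49 in Egfl7 (chr2:26581022-26581051, plus strand). Egfl7 has 3 listed start sites, and the distance is to that of the promoter shown. The stretches of Robo4, Erg and Egfl7 lie inside the annotated span of the gene, so the start sites used are not the outermost ones. Erg spans 95359169 to 95586593, and its stretch lies far inside.

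Among surface proteins, channels and enzymes, Ly6c1 came closest to the threshold of all members. This GPI-anchored protein of capillary endothelium measured 3954, 5513, 4559 and 4925 in control and 6788, 5776, 6013 and 6889 in knockout replicates (0.43, SE 0.10, adjusted p = 0.0589). Every knockout library exceeded every control, and its span of 1.74-fold was among the narrowest. Ly6c1 (chromosome 15, 75044018 to 75048830) lies near Ly6c2 (75108158 to 75111970), which marks inflammatory monocytes, and 22.9% of the 31-base words of Ly6c1 transcripts also occur in Ly6c2. In reverse, 48.2% of the words of Ly6c2 transcripts also occur in Ly6c1. The split of reads between them is therefore uncertain, and more so for Ly6c2. As counted, Ly6c1 exceeded Ly6c2 by 20.9-fold to 33.5-fold in each library, and Ly6c2, chosen after its values were seen, measured 184 ± 32.4 and 249 ± 30.7 (0.44, SE 0.15, adjusted p = 0.150).

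Nos3, the endothelial nitric oxide synthase, was the other endothelial gene without overlap. It measured 1632, 3050, 3104 and 2112 in control and 3682, 3158, 3351 and 3906 in knockout replicates (0.56, SE 0.19, adjusted p = 0.153). The lowest knockout library exceeded the highest control by little. With the mural gene Mcam, 3 of 37 members had all knockout values above all control values and 0 had the reverse, while 5.52% and 8.21% of all genes did.

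Gpihbp1, the lipase anchor of fat and muscle capillaries, measured 3450 ± 909 and 5024 ± 1028 (0.56, SE 0.21, adjusted p = 0.172). Its ratio to Pecam1 held between 0.184 and 0.217 over the 8 libraries. Plvap, the diaphragm protein of fenestrated and venous endothelium, measured 12150 ± 2552 and 16696 ± 4351 (0.45, SE 0.20). Aqp1 measured 38570, 56685, 53437 and 40377 in control and 70636, 52703, 46914 and 78514 in knockout replicates (0.38, SE 0.19, adjusted p = 0.290). It shows the same high pair, knockout replicates 1 and 4, and the same low pair, control replicates 1 and 4.

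The sialomucins Emcn (1436 ± 321 and 2065 ± 407; 0.53, SE 0.18) and Podxl (4861 ± 1089 and 6485 ± 661; 0.44, SE 0.16), the latter made by mesothelium too, had adjusted p of 0.148 and 0.164. Ramp2, the partner of the adrenomedullin receptor, differed by 0.47 (SE 0.16, adjusted p = 0.145), and Ecscr, a regulator of endothelial migration, by 0.51 (SE 0.18, adjusted p = 0.155). Among secreted proteins, Egfl7, which also hosts the endothelial microRNA miR-126, measured 4040, 9333, 7684 and 4976 in control and 12110, 8031, 8444 and 11201 in knockout replicates (0.67, SE 0.26, adjusted p = 0.188). Its span of 3.00-fold was among the widest, and knockout replicates 2 and 3 lay inside the control range.

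Vwf, von Willebrand factor, is stored by endothelial cells and platelets. It measured 18336, 28372, 31201 and 21602 in control and 39519, 27878, 26636 and 35995 in knockout replicates (0.40, SE 0.19, adjusted p = 0.270). The matrix protein Mmrn2 measured 7352 ± 1896 and 10274 ± 2039 (0.50, SE 0.20, adjusted p = 0.198). For both, knockout replicates 2 and 3 fell within the control range. Of the platelet list Pf4, Ppbp and Itga2b were in the table, with summed values between 6460 and 7508 in control libraries and between 5671 and 7074 in knockout libraries and 0 calls. Pf4 made up nearly all of that sum, at 6886 ± 530 and 6212 ± 596, so the sum says little about the rest of the list. Itga2b measured 109 and 137, and Ppbp 35.4 and 51.0. Pf4 differed by -0.15, Itga2b by 0.34 and Ppbp by 0.49, and Gp9, Gp1bb and Gp6 are not in the table analysed here.

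**Figure D3:**
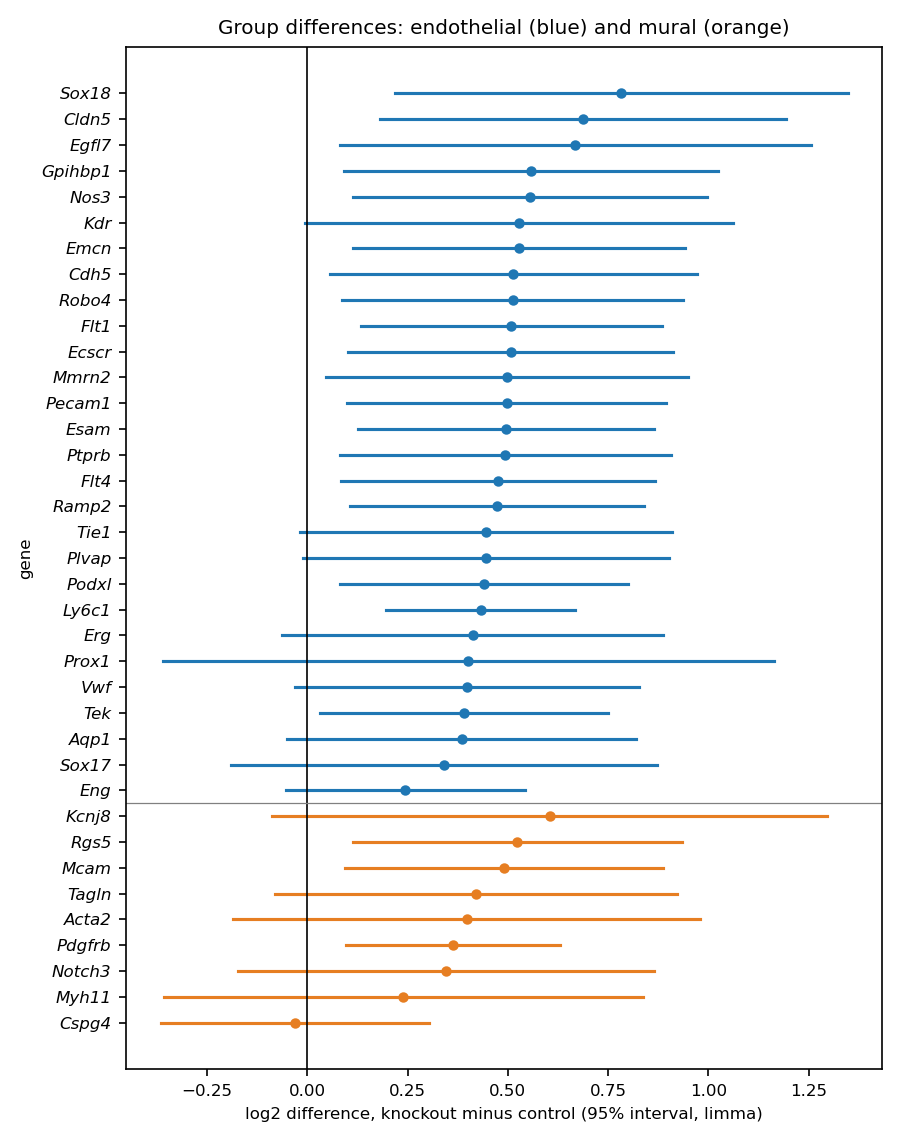
Points give the log2 difference, knockout minus control, and lines its 95% interval from limma, for 28 endothelial genes (blue) and 9 mural genes (orange), each sorted by size. All endothelial points lie above 0, from 0.24 to 0.78, and the mural gene Cspg4 lies at -0.03.

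The median difference was 0.43 for the 6 pericyte genes and 0.40 for the 3 contractile genes. Rgs5, a regulator of G-protein signalling that marks pericytes, measured 10768, 20177, 15295 and 12024 in control and 23361, 18453, 18819 and 21042 in knockout replicates (0.52, SE 0.18, adjusted p = 0.148). Only control replicate 2 reached into the knockout range. Rgs5 kept a ratio of 0.763 to 0.948 to the endothelial gene Pecam1 over the 8 libraries. It spans chromosome 1 from 169655501 to 169695813.

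Pdgfrb, the receptor through which endothelial PDGF-B recruits pericytes and which fibroblasts also carry, measured 5317, 7739, 6657 and 5654 in control and 8608, 7221, 8609 and 7929 in knockout replicates (0.36, SE 0.12, adjusted p = 0.126). Knockout replicate 2 was the one knockout library below a control. Mcam (CD146), shared by pericytes, smooth muscle and endothelium, measured 3237, 5668, 5310 and 4055 in control and 7647, 5732, 6077 and 5784 in knockout replicates (0.49, SE 0.18, adjusted p = 0.161). Its groups did not overlap, though the gap between 5668 and 5732 was narrow. Notch3, the mural Notch receptor, measured 11832 ± 3558 and 14701 ± 3001 (0.35, SE 0.23, adjusted p = 0.430). The difference of Notch3 was 0.14 without control replicate 1 and 0.22 without knockout replicate 1.

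Kcnj8, the pore of the ATP-sensitive potassium channel of pericytes, had the widest span of all members, at 3.54-fold. It measured 522, 1669, 1175 and 989 in control and 1847, 1267, 1404 and 1650 in knockout replicates (0.60, SE 0.31, adjusted p = 0.297). The difference was 0.29 without control replicate 1, the lowest library. Kcnj8 (chromosome 6, 142564837 to 142571614) lies next to Abcc9 (142587862 to 142702315), the regulatory subunit of the same channel. Abcc9, named after its values were seen, measured 3096 ± 904 and 4426 ± 399 (0.56, SE 0.19, adjusted p = 0.134).

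Cspg4 (NG2), a proteoglycan of pericytes and other mesenchymal cells, was the exception among the mural genes. It measured 1586, 2134, 2082 and 1564 in control and 2145, 1635, 1968 and 1464 in knockout replicates (-0.03, SE 0.15, adjusted p = 0.932, 95% interval -0.37 to 0.30). Its sign turned with equal totals (0.03), with macrophage scaling (0.29) and without control replicate 2 (0.04), control replicate 3 (0.03), knockout replicate 2 (0.01) or knockout replicate 4 (0.06). Knockout replicate 4 was its lowest library, although that library ranked high for most endothelial genes.

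The contractile genes split from the endothelial genes in knockout replicate 4. Acta2, smooth muscle actin, is close in sequence to other actin genes such as Actg2, so the split of reads among them is uncertain. It measured 8020, 12980, 12857 and 11372 in control and 19999, 17513, 15087 and 8671 in knockout replicates (0.40, SE 0.26, adjusted p = 0.418). Tagln, the actin-binding protein SM22, measured 7772, 14653, 13336 and 11813 in control and 21115, 15784, 14617 and 11810 in knockout replicates (0.42, SE 0.22, adjusted p = 0.314). Myh11, the smooth muscle myosin heavy chain, measured 11976, 23630, 24439 and 19441 in control and 31452, 21666, 24698 and 15504 in knockout replicates (0.24, SE 0.26, adjusted p = 0.652). In all 3 genes knockout replicate 4 was the lowest knockout library and knockout replicate 1 the highest of all 8.

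The mean log2 deviation of the contractile genes minus that of the endothelial genes was -0.80 in knockout replicate 4 and between -0.12 and 0.26 in the other 7 libraries. For the 6 other mural genes the same measure was -0.29 in that library and between -0.04 and 0.13 elsewhere. The ratio of Acta2 to Rgs5 was 0.412 there and 0.643 to 0.949 in the other libraries. Without knockout replicate 4, the differences were 0.65 (SE 0.18) for Acta2, 0.55 (SE 0.22) for Tagln and 0.42 (SE 0.25) for Myh11, with limma adjusted p of 0.115, 0.243 and 0.400. Members at an unadjusted p under 0.05 then numbered 5 of 9 mural genes, in place of 3. Without control replicate 1, the lowest library, Acta2 differed by 0.24, Tagln by 0.23 and Myh11 by 0.01. Without knockout replicate 1, the highest, they differed by 0.25, 0.27 and 0.08.

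**Figure D4:**
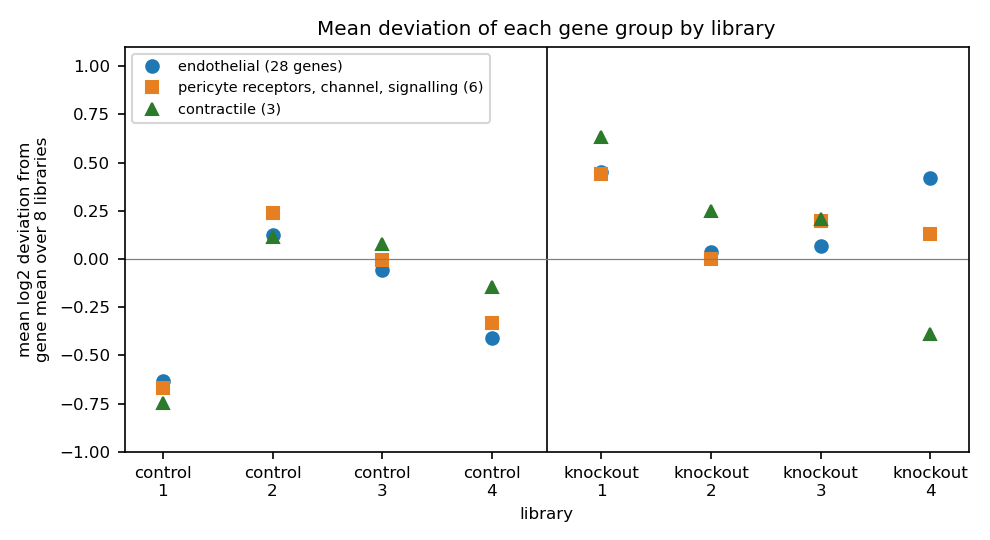
Each point is the mean over a gene group of the deviation of log2(normalized count + 1) from the gene's mean over 8 libraries, for endothelial, pericyte and contractile genes. The 3 groups lie close together in most libraries and part in knockout replicate 4, where the contractile genes are at -0.39 and the endothelial genes at 0.42.

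Other genes of vascular signalling were taken from fixed lists. Of 19 ligands 1 passed as higher and 0 as lower (list median 0.23). An unadjusted limma p under 0.05 was found for 8 ligands, all higher in knockout libraries. Over all genes 21.2% had such a p, and 10.8% had it with a higher knockout mean. Pdgfd, a ligand of the PDGF-beta receptor, rose from 461 ± 60.4 to 701 ± 72.4 (0.61, SE 0.11, adjusted p = 0.0249). With 1 library left out, Pdgfd passed without control replicate 2 or knockout replicate 2 and missed in the 6 other fits (highest adjusted p 0.0745). Vegfa, the ligand of Kdr and Flt1, chosen after its values were seen, measured 716 ± 171 and 549 ± 31.8 (-0.35, SE 0.16, adjusted p = 0.241). Angpt1, the TIE2 ligand made by mural cells, measured 172 ± 16.4 and 223 ± 3.12 (0.38, SE 0.10, adjusted p = 0.0715). Cxcl12, the ligand with the highest normalized count averaged over the 8 libraries though not per length, measured 5765 ± 997 and 7445 ± 1146 (0.37, SE 0.14, adjusted p = 0.180). Of 14 receptors and Notch targets 0 passed in limma and 3 had an unadjusted p under 0.05, 2 higher and 1 lower (median 0.29), near the share of all genes. The semaphorin and VEGF co-receptor Nrp1, which macrophages express too, measured 13423 ± 880 and 11960 ± 440 (-0.17, SE 0.06, adjusted p = 0.166; 0.15 when scaled to macrophage genes), and the sphingosine 1-phosphate receptor S1pr1 6728 ± 549 and 8096 ± 489 (0.27, SE 0.07, adjusted p = 0.0781).

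Endothelial and mural genes outside the 37 did not all have higher knockout values. Of 22 other endothelial genes 0 passed in limma, 19 were higher on average in knockout libraries and 11 had an unadjusted p under 0.05, 10 of them higher and 1 lower (list median 0.49). The lower one was Lmo2, a transcriptional cofactor of endothelial and blood cells, at 8240 ± 261 and 6439 ± 950 (-0.37, SE 0.10, adjusted p = 0.0830), with every knockout library below every control. Cd93 (-0.16, SE 0.10) and Fli1 (-0.08, SE 0.12), which blood cells also express, were lower on average too. These 3 were named after their values were seen. The progenitor and capillary marker Cd34 measured 4858 ± 702 and 6479 ± 522 (0.42, SE 0.10, adjusted p = 0.0577), Cyyr1 2016 ± 309 and 2863 ± 405 (0.51, SE 0.13, adjusted p = 0.0681) and the adhesion receptor Adgrf5 16097 ± 3919 and 22337 ± 4117 (0.49, SE 0.19). Of 15 other mural genes 0 passed, all 15 were higher on average and 5 had an unadjusted p under 0.05 (median 0.37). Their sum ran from 26515 to 38866 in control and from 40055 to 48637 in knockout libraries. Without Postn the groups overlapped, with sums from 18853 to 31065 in control and from 29132 to 39313 in knockout libraries. Postn, a matrix protein of smooth muscle and fibroblasts, measured 7017 ± 1238 and 11042 ± 2547 (0.65, SE 0.18, adjusted p = 0.0820), and Steap4 3315 ± 443 and 4271 ± 404 (0.37, SE 0.10, adjusted p = 0.0868).

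Markers of other cells moved in these libraries as well, and their part in the vascular differences was not tested. No gene of these lists was at 0 in all libraries. Of 10 macrophage genes 4 fell, namely Itgam (-0.47), Cd68 (-0.41), Csf1r (-0.45) and Trem2 (-0.42), with a list median of -0.42. The most abundant of the list, Lgals3, had -0.23, which turned to 0.08 when libraries were scaled to the list itself. The list summed to values between 338176 and 394427 in control libraries and between 287395 and 326483 in knockout libraries. With 1 library left out, Itgam passed in all 8 fits. Trem2 missed in all 8, Csf1r in all but that without control replicate 2, and Cd68 without control replicate 3 or knockout replicate 1 or 4. When each library was scaled to its macrophage genes, 26 of 28 endothelial and 4 of 9 mural members passed as higher, as did 37% of all genes in either direction. That scaling moved the median of all genes to 0.32 and the endothelial median to 0.81, still 0.49 above it.

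The 14 fibroblast genes had a median of 0.31 and 0 calls, with sums between 183287 and 297893 in control libraries and between 224846 and 320331 in knockout libraries. Control replicate 1, the lowest library for endothelial genes, had the highest fibroblast sum of the controls. In that list Gsn differed by 0.06, Dpp4 by 0.64 and Col1a1 by 0.50, and among adipocyte genes Lipe differed by 0.29, Lep by 0.57 and Plin1 by 0.60. The 9 adipocyte genes (median 0.28, 0 calls) summed to 4464 to 5693 and 5577 to 6986, and the 8 mesothelial genes (median 0.67, 1 call: Upk1b higher by 1.12, beside Upk3b at 0.93, Wt1 at 0.03, Krt19 at -0.45 and Krt18 at -1.08) to 645 to 978 and 527 to 1595. The 7 monocyte genes (median 0.44, 0 calls, F13a1 at 0.31, Ccr2 at -0.24, Chil3 at 0.97) summed to 16999 to 29909 and 20246 to 38094. The 7 T and NK cell genes (median 0.71, 0 calls, Trac at 0.69, Ncr1 at 0.96, Nkg7 at 1.25) summed to 147 to 270 and 220 to 415, and the 4 B cell genes (median 0.53, 0 calls, Cd79b at 0.46, Ms4a1 at 0.56) to 501 to 1157 and 714 to 1820. The 5 Schwann cell genes had a median of 0.02 and 1 call, Mbp lower (-0.43), with sums of 2559 to 2967 and 1744 to 2270. With 1 library left out, Mbp missed the threshold in all 8 fits and Upk1b in all but that without control replicate 2.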

How the data were processed

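Poly(A)-selected RNA of F4/80-positive cells was sequenced from 4 control and 4 knockout samples, grouped by title and genotype labels. The authors deposited normalized counts, a signal equal to whole reads divided by 1 factor per library (100% of values whole within 0.01 reads; the step of control replicate 4 is too near 1 to tell from rounding by low values alone). Per the submitters' processing notes, the tools were Salmon, DESeq2, cutadapt and FastQC and the build mm10; no roles or versions are stated. The deposited DESeq2 table holds, per the file headers, a mean signal, log2 fold changes of control over knockout, standard errors and test statistics (score columns) and p-values; it was used for adjusted p and direction only.

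Groups were compared by limma 3.58.1 under R 4.3.3 (trend, no covariate) on log2(value + 1). This covered 15862 genes whose mean reached 10, and the fit was tested on simulated data. Log2 differences on this scale understate changes of low genes. Count models (edgeR 4.0.16, DESeq2 1.42.0) ran on recovered reads only as alternatives, beside other scalings, pseudocounts, filters, a replicate block and leaving out each library. Normalized values are 0.819 to 1.14 per read, so Prox1 rests on few reads. Whether counting used strand is not stated.

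All 37 members are named, and from each other list the most abundant gene (mean normalized count over 8 libraries) and the 2 with the smallest p, with Lyz2 as label check. Of the genes this rule names, 1 is not reported here. Names outside this rule (genes called in a list, Adgre1, Csf1r, Vegfa, Ly6c2, Abcc9, Lmo2, Cd93, Fli1, Krt18, Krt19, Wt1) were chosen after their values were seen. Members and lists were chosen with earlier results of these data known. Positions and transcript lengths are from GENCODE M21 (mm10), promoters from RefSeq.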

Additional observations from a re-analysis of the deposited data

How the results depend on the processing

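Over the 37 members and 18 alternatives, directions held in all but 6 results, all of Cspg4 (-0.03 as reported): 0.027 with equal totals, 0.29 with macrophage scaling and -0.12 to 0.06 when 1 library was left out (0.04 without control replicate 2, 0.03 without control replicate 3, 0.01 without knockout replicate 2, 0.063 without knockout replicate 4). Prox1 was below the filter of a mean of at least 50 and has no value there. Scaling to macrophage genes also turned Nrp1 (0.15), Lgals3 (0.084) and Adgre1 (0.11). Endothelial members past the threshold numbered 0 in limma, 1 with equal totals, 1 with quantile normalization (Ly6c1 in both; 3.08% of all genes in each), 26 with macrophage scaling, 7 with DESeq2 and 0 to 1 without 1 library. Mural members numbered 0 in limma, 4 with macrophage scaling, 1 with DESeq2 and 0 to 2 without 1 library. Over all genes 573 passed (196 higher, 377 lower), 5861 with macrophage scaling, 1557 with DESeq2 and 163 to 502 without 1 library; equal totals gave 245 higher and 244 lower. Pseudocounts of 0.5 and 5, other filters and edgeR left both member counts at 0. The endothelial median ranged from 0.35 to 0.61 and the mural median from 0.24 to 0.51 when 1 library was left out.

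With the replicate number as a block, 0 endothelial and 0 mural members passed and 7 of all genes. An unadjusted p under 0.05 was then found for 9 endothelial and 2 mural members, and for fewer of all genes than without the block. Deviations of same-numbered libraries correlated at -0.293 to -0.036 over genes and 0 of 4 controls correlated best with its own number. No pairing by number was thus visible, though correlations over 4 libraries per group cannot show that there was none. Counting error limits Prox1 most. No value of a member or class sum stood apart from the other 3 of its group by Dixon's criterion.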
